A study of Mus musculus with 6 samples.

Results

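The tumour necrosis factor (TNF) superfamily was followed in 6 RNA-seq libraries of RFB, a fibroblast line from kidney. Its members were taken from the gene table by symbol, namely every row whose symbol begins with TNFSF or TNFRSF together with TNF, LTA, LTB, LTBR, CD40, CD40LG, FASLG, CD70, EDA, EDAR and NGFR. This gave 44 of 20323 rows, made up of 18 ligands, 25 receptors and 1 row for the TNFSF12-TNFSF13 readthrough transcript. All 6 libraries came from cells given TGF-β, a growth factor widely used to turn fibroblasts into matrix-producing myofibroblasts. Of these 3 had TGF-β alone, and 3 had CXCL10 as well, an interferon-induced chemokine whose receptor is CXCR3. The row of CXCR3 had 0 counts in all 6 libraries. No untreated cells were analysed here. Titles of the libraries with CXCL10 name a volume of 5 µl and no concentration. SUV39H1 knockdown is named in the series description but in none of the sample labels. Mouse is the labelled organism, whereas all 20323 rows carry human Ensembl identifiers, so the levels below refer to human gene models. The label and the rows thus disagree on the species. TNFRSF6B, a gene that mice lack, had 156 counts over the 6 libraries together. Which species the reads came from was not tested.

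TNF superfamily ligands are mostly trimeric membrane proteins, some of which are shed, and they bind receptors with cysteine-rich repeats. Some receptors carry a cytoplasmic death domain that recruits FADD or TRADD and can start apoptosis or inflammatory signalling. Others bind TRAF adaptors and lead to NF-κB, and a few are decoys that hold the ligand without signalling. Fibroblasts are known mainly as receivers of these signals, and leukocytes as the source of many of the ligands.

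The libraries held 12838106 to 15587409 counts, so that 3 counts, the limit that a count of 0 allows, equalled 0.187 to 0.237 CPM (counts scaled to a common library size). This limit covers counting error only. Of the fibroblast markers looked at, all 9 passed the filter on low counts (10 rows, since PDGFRA has a pair of rows). Their summed level was 50026 to 58041 CPM with TGF-β and 47044 to 51712 CPM with CXCL10. Of 10 leukocyte markers 3 passed (CD68, CSF1R and LCP1) and CD3E, CD3D and MS4A1 had 0 counts. The summed leukocyte level was 43.6 to 48.3 CPM with TGF-β and 43.1 to 50.0 CPM with CXCL10. Of 6 endothelial markers TEK and VWF passed, at a summed 50.4 to 51.6 CPM and 47.9 to 51.9 CPM. Of 8 epithelial markers 4 passed, with LRP2, CDH16 and UMOD at 0 counts, and nearly all of their summed 2948 to 3435 CPM and 3166 to 3429 CPM lay on KRT8 and KRT18. In the paired fit described below the fibroblast marker THY1 and the epithelial marker KRT18 were higher with CXCL10, and COL1A1, DCN, LUM and the epithelial CDH1 were lower. The part of these shifts in the results below was not tested. TGF-β replicate 1 stood apart from its group, and so did CXCL10 replicate 1. Of the variance over 11970 tested genes 48.4% fell on principal component 1. TGF-β replicate 1 scored -5.54 there, TGF-β replicates 2 and 3 scored 28.3 and 29.5, and the CXCL10 libraries -32.8, -9.78 and -9.67. For the members and the genes of the pathway lists that are named as called below, the distance of TGF-β replicate 1 from its group is given. The part of either replicate 1 library in the results was not tested beyond the fits that leave it out.

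The cells held transcripts of far more receptors than ligands. Of the 44 members 19 passed the filter on low counts and are called tested here, 18 had a few counts but did not pass, and 7 had 0 counts in all 6 libraries. The tested share was 43.2% of the members and 58.9% of all rows, and the share with 0 counts was 15.9% and 22.8%. Among receptors 14 of 25 were tested, among ligands 5 of 18. All 4 decoy receptors were tested, and so were 5 of 7 death domain receptors and 5 of 14 receptors of the TRAF-binding class, which here takes in every receptor that is neither of the other kinds. The summed FPKM (fragments per kilobase of gene length and library size, which allows levels to be compared between genes) was 432 ± 27.3 for the receptors and 9.99 ± 0.46 for the ligands with TGF-β (SD, n = 3). With CXCL10 the sums were 452 ± 18.2 and 14.0 ± 3.09, so that ligands made up 2.54% to 3.55% of the family's level there and 2.19% to 2.36% with TGF-β alone. The higher ligand sum lay on TNFSF15 (mean 2.01 FPKM with TGF-β and 4.95 with CXCL10) and TNFSF4 (2.87 and 4.49). TNFSF12 (3.17 and 2.75) and TNFSF10 (0.809 and 0.305) were lower, and TNFSF18 was about level (0.306 and 0.316). In CXCL10 replicate 1 TNFSF15 made up 7.87 of the ligands' 17.4 FPKM.

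The 7 members with 0 counts were the ligands LTB, CD40LG and TNFSF11 (RANKL, the osteoclast differentiation factor) and the receptors TNFRSF4, TNFRSF13B, TNFRSF17 and TNFRSF18. TNFRSF4 and TNFRSF18 are costimulatory receptors of T cells, and TNFRSF13B and TNFRSF17 are receptors of B cells and plasma cells. The ligands with a few counts were TNF, LTA, FASLG, CD70, TNFSF8, TNFSF9, TNFSF13, TNFSF13B, TNFSF14 and EDA. TNF itself had 0, 4 and 2 counts with TGF-β and 2, 2 and 0 with CXCL10, at most 0.153 FPKM in any library. LTA had 0 to 7 counts, FASLG 0 to 2, CD70 0 or 1, TNFSF8 0 to 3, EDA 0 to 2, TNFSF13B 0 to 4, TNFSF14 2 or 3, TNFSF13 0 to 6 and TNFSF9, the ligand of TNFRSF9, 4 to 19. The receptors with a few counts were CD40 (0 to 7), NGFR (0 to 4), EDAR (0 or 1), TNFRSF8 (1 to 7), TNFRSF11A (0 to 4), TNFRSF13C (0 to 3) and TNFRSF19 (0 to 9). CD40, the costimulatory receptor of B cells and dendritic cells, had 4, 2 and 0 counts with TGF-β and 7, 4 and 6 with CXCL10, and TNFRSF11A, the receptor RANK, had its 4 counts in TGF-β replicate 1 alone. The readthrough row TNFSF12-TNFSF13 had 0 to 10 counts, and reads of TNFSF12 and TNFSF13 may be shared with it.

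Among the receptors TNFRSF12A stood highest (ENSG00000006327). It encodes Fn14, the receptor of the ligand TWEAK, and its mean FPKM over the 6 libraries was 167, above 97.2% of tested genes. It was followed by TNFRSF1A (87.1), the broadly expressed TNF receptor with a death domain, by LTBR (73.2), the lymphotoxin β receptor, and by TNFRSF10B (65.5), a death receptor for TRAIL. These 4 genes lay above 92.7% or more of the tested genes, and only LTBR and TNFRSF10B overlapped with each other in range. A middle group held TNFRSF21 (12.0), a death domain receptor best known from neurons, TNFRSF10A (10.5), the other death receptor for TRAIL, and TNFRSF10D (10.4), a TRAIL decoy with a truncated death domain. TNFRSF10A overlapped both of its neighbours in range, while TNFRSF21 lay above TNFRSF10D in every library. Below them lay TNFRSF11B (6.58), TNFRSF1B (4.07), TNFRSF6B (1.61), TNFRSF10C (1.17), TNFRSF14 (0.974), TNFRSF25 (0.858) and TNFRSF9 (0.561). The ligands were TNFSF4 (3.68), TNFSF15 (3.48), TNFSF12 (2.96), TNFSF10 (0.557) and TNFSF18 (0.311), of which the first 3 overlapped in range, as did the last 2.

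**Figure D1:**
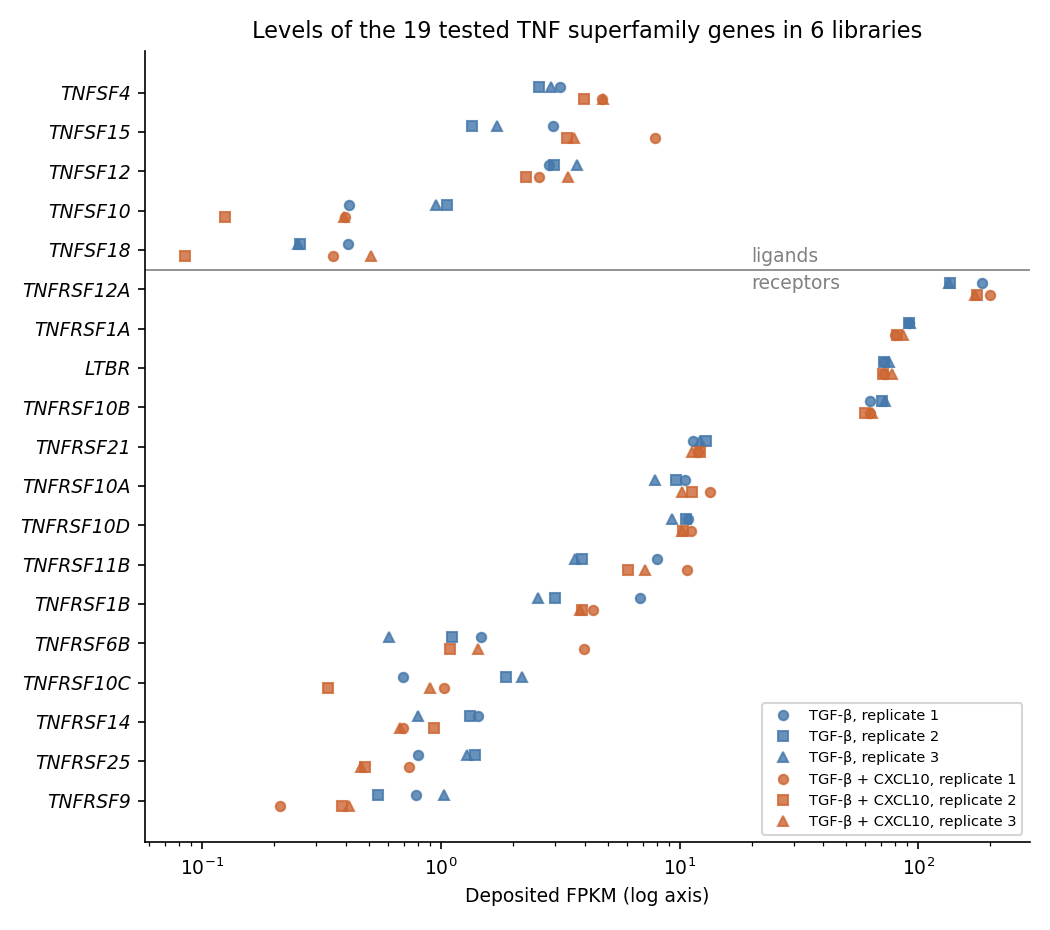
Deposited FPKM (log axis) of the 19 tested members, 1 point per library, with TGF-β libraries in blue above and CXCL10 libraries in orange below, and the marker shape giving the replicate number. TNFRSF12A, TNFRSF1A, LTBR and TNFRSF10B lie between 59.8 and 199 FPKM in every library, while all 5 ligands lie below 8.

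Ligand and receptor were both tested in a minority of known partnerships. Of 33 partnerships looked up, including those of FAS, CD27 and EDA2R, both sides were tested in 8, the receptor alone in 13, the ligand alone in 2 and neither in 10. The 8 were TNFSF12 with TNFRSF12A, TNFSF15 with TNFRSF25 and TNFRSF6B, and TNFSF10 with TNFRSF10A, TNFRSF10B, TNFRSF10C, TNFRSF10D and TNFRSF11B. Those of TNFSF10 rest on a ligand with 3 to 31 counts per library, which passed the filter mainly through the TGF-β group. TNFSF4 and TNFSF18 were tested while their receptors TNFRSF4 and TNFRSF18 had 0 counts.

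The comparison asked what CXCL10 does to these genes in cells that also receive TGF-β. The levels of the ligands TNFSF15 and TNFSF4 and of the receptors TNFRSF11B, TNFRSF1B and TNFRSF12A were higher with CXCL10 in all 3 same-numbered pairs of libraries. Their fitted paired changes were 0.32 to 1.31 on the log2 scale, and their single pairs differed by 0.12 to 1.43. Of the other tested members TNFRSF10A, TNFRSF10D and TNFRSF6B also rose in all 3 pairs, and TNFSF12, TNFSF10 and TNFRSF1A fell in all 3. How many of all genes rose or fell in all 3 pairs was not counted, so these directions show nothing particular to the family. In the edgeR quasi-likelihood test without pairing 0 of the 19 members passed at an adjusted p under 0.05, and 0.0% of all 11970 genes did in either direction. At an unadjusted p under 0.05 that test had 4 members higher and 1 lower, against 10.5% and 10.0% of all genes. Paired by replicate number, edgeR called TNFSF15, TNFSF4, TNFRSF11B, TNFRSF1B and TNFRSF12A higher and 0 members lower. That is 26.3% and 0.0% of the 19 tested members, against 9.71% and 8.04% of all genes. With library totals in place of TMM scaling the paired split over all genes was 878 higher (7.34%) and 1358 lower (11.3%), in place of 1162 and 962, and 5 members were higher and 0 lower. The pairing was taken from the counts and not from the labels, so paired standard errors and adjusted p values depend on it. The correlations behind it are not independent of each other, as set out with the processing.

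Counts of called members in other fits were small. DESeq2 without pairing called TNFSF4 alone (background 1.44% higher and 1.36% lower), and DESeq2 with pairing called 4 members higher (background 5.71% and 3.79%). Without pairing DESeq2 gave no adjusted p for TNFSF12, TNFSF10, TNFSF18, TNFRSF14, TNFRSF9, TNFRSF25, TNFRSF6B and TNFRSF10C, and with pairing none for TNFSF18. Those members could not be called there, while the background shares are over all 11970 genes. Paired limma-trend on log2(FPKM + 1) called TNFSF15 alone (background 2.82% and 2.94%). Without TGF-β replicate 1, unpaired edgeR called the same 5 members higher and TNFSF10 lower (background 10.7% and 8.61%). Paired edgeR without both libraries of replicate 1 called these 5 higher and TNFSF10, TNFRSF10C and TNFRSF10B lower, of 18 tested members (background 12.7% and 10.9%). Without those of replicate 2 it called 4 members higher (background 5.66% and 4.67%), and without those of replicate 3 it called 3 (background 4.46% and 3.02%), with 0 lower in each. The scaled levels of the groups did not overlap for 3 tested members higher with CXCL10 (TNFSF15, TNFSF4 and TNFRSF1B) and 2 lower (TNFSF10 and TNFRSF1A), or 15.8% and 10.5%, against 11.1% and 11.2% of all genes. Of these TNFSF10 passed the filter on low counts mainly through the TGF-β group.

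Among the ligands the largest rise was that of TNFSF15 (ENSG00000181634), which encodes TL1A, a costimulator of T cells. Its levels were 18.2, 8.66 and 10.7 CPM in TGF-β replicates 1, 2 and 3 and 49.2, 21.8 and 23.5 CPM in the CXCL10 libraries. Every CXCL10 library lay above every TGF-β library, and replicate 1 was the highest of both groups. The paired log2 change was 1.31 (SE 0.11, adjusted p = 9.56e-06), with pairs at 1.43, 1.32 and 1.12, and the unpaired adjusted p was 0.161. TGF-β replicate 1 lay 0.90 (log2) above the other TGF-β libraries, and CXCL10 replicate 1 lay 1.12 above the other CXCL10 libraries. Without CXCL10 replicate 1 the unpaired change was 0.86 in place of 1.34. TNFSF15 was called in each of the paired fits above.

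TNFSF4 (ENSG00000117586), the ligand of the T cell receptor OX40, was higher as well. Its levels were 11.0, 8.66 and 9.84 CPM with TGF-β and 16.7, 13.9 and 16.9 CPM with CXCL10. The groups did not overlap. It was the most even of the 5, with pairs at 0.60, 0.68 and 0.77 and TGF-β replicate 1 only 0.25 above its group. The paired log2 change was 0.69 (SE 0.12, adjusted p = 0.00186). Without pairing edgeR gave an adjusted p of 0.161 and DESeq2 0.0159, and in the authors' deposited table its adjusted p was 0.0302. Paired limma-trend on FPKM did not call it (adjusted p = 0.0610).

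TNFSF10 (ENSG00000121858) encodes TRAIL, which triggers apoptosis through TNFRSF10A and TNFRSF10B. It was low, with 11, 31 and 23 counts in the TGF-β libraries and 10, 3 and 10 in the CXCL10 libraries, or 0.775, 1.93 and 1.73 CPM against 0.703, 0.237 and 0.749 CPM. The groups did not overlap, but TGF-β replicate 1 lay next to the CXCL10 libraries and the pairs differed by -0.12, -2.45 and -1.07. TNFSF10 passed the filter, set at a count of 10, mainly through the TGF-β libraries, where it was higher. The 3 counts of CXCL10 replicate 2 equalled the limit that a count of 0 allows. The non-overlap is therefore weak support for a difference in TNFSF10. The paired log2 difference of -1.34 (SE 0.54) did not pass (adjusted p = 0.113). It passed without both libraries of replicate 1 (-1.91, adjusted p = 0.0138) and, unpaired, without TGF-β replicate 1 (0.0455). Without those of replicate 2 the difference was -0.71 (adjusted p = 0.566) and without those of replicate 3 it was -1.42 (0.311). TNFSF12, which encodes TWEAK, stood at 4.34 ± 0.60 CPM and 3.87 ± 0.84 CPM (SD, n = 3) with a paired difference of -0.17 (SE 0.23, adjusted p = 0.664). TNFSF18, the ligand of the T cell receptor GITR, had 36 counts in all in each group, and its difference of -0.02 (SE 0.53) could not be told from 0 at this depth.

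**Figure D2:**
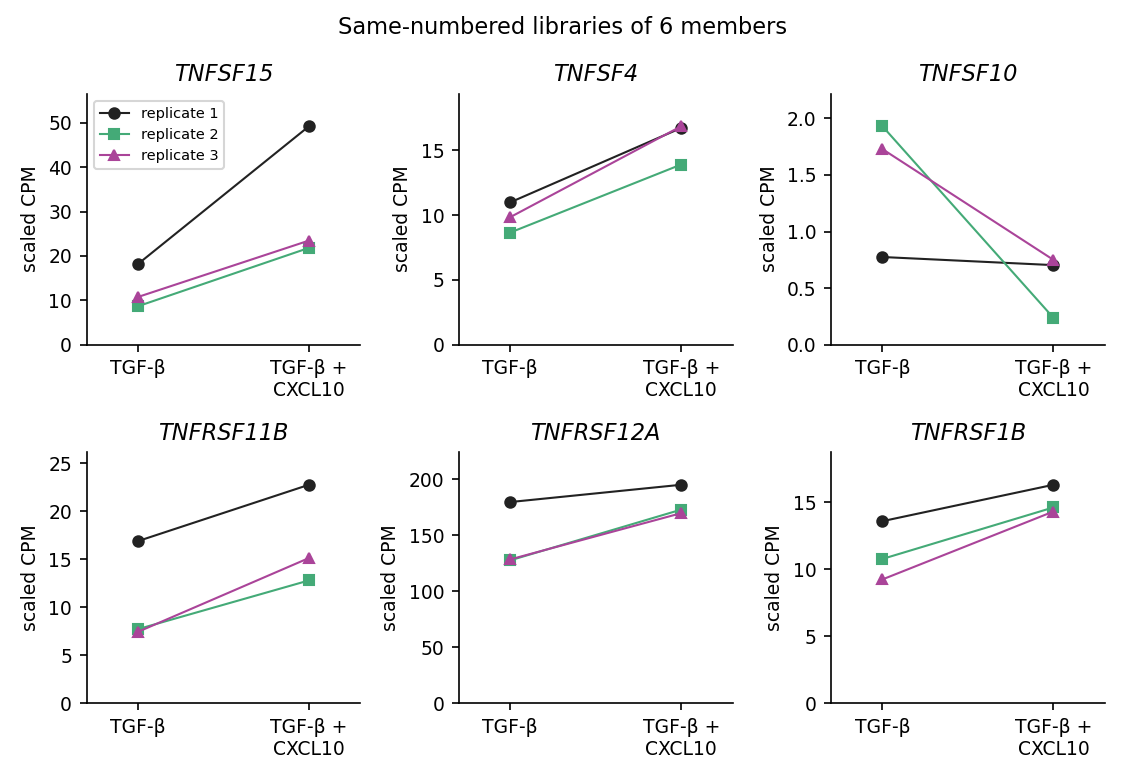
Scaled CPM (linear axis from 0) of 6 members in the TGF-β and the CXCL10 libraries, with a line joining libraries of the same replicate number. All 3 lines rise for TNFSF15, TNFSF4, TNFRSF11B, TNFRSF12A and TNFRSF1B, and TGF-β replicate 1 (black) starts highest in those 5 and lowest for TNFSF10.

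Of the TRAF-binding receptors TNFRSF12A and TNFRSF1B were higher in the paired fit. TNFRSF12A had 179.7, 128 and 128 CPM with TGF-β and 195, 173 and 169.7 CPM with CXCL10. TGF-β replicate 1 lay above CXCL10 replicates 2 and 3, so the groups overlapped, and it exceeded its own group by 0.49 (log2), more than the paired change of 0.32 (SE 0.06, adjusted p = 0.00317). The pairs differed by 0.12, 0.44 and 0.40. The call was lost without both libraries of replicate 3 (adjusted p = 0.0569) and in paired limma-trend (0.0539). Its ligand TNFSF12 passed no test, as given above.

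TNFRSF1B (ENSG00000028137), the TNF receptor without a death domain, had 13.6, 10.8 and 9.24 CPM with TGF-β and 16.3, 14.6 and 14.3 CPM with CXCL10. The groups did not overlap, although TGF-β replicate 1 came close to the lowest CXCL10 library and lay 0.44 (log2) above its own group. Its paired log2 change of 0.44 (SE 0.13, adjusted p = 0.0299) was the weakest of the 5 calls. It was lost in paired DESeq2 (adjusted p = 0.167), without replicate 2 (0.0899), without replicate 3 (0.187) and on FPKM (0.885). LTBR was level, at 143 ± 2.42 CPM and 146 ± 6.15 CPM, with a paired difference of 0.03 (SE 0.05, adjusted p = 0.755). TNFRSF14, the herpesvirus entry mediator that binds TNFSF14 (LIGHT), had 62 and 48 counts in the 2 groups and TNFRSF9, a costimulatory receptor of activated T cells, 81 and 77. Their paired differences of -0.12 (SE 0.43) and 0.18 (SE 0.39) did not pass.

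None of the 5 tested death domain receptors was called in the unpaired or the paired edgeR fit of all libraries. TNFRSF1A had 185, 188 and 189 CPM with TGF-β and 169, 170.4 and 185 CPM with CXCL10. The groups touched, with CXCL10 replicate 3 just under TGF-β replicate 1, and the paired difference of -0.10 (SE 0.05) had an adjusted p of 0.198. TNFRSF10B stood at 216 ± 15.8 CPM and 202 ± 6.21 CPM (paired difference -0.09, SE 0.06, adjusted p = 0.304) and passed only without both libraries of replicate 1 (adjusted p = 0.00446). TNFRSF10A stood at 23.5 ± 4.32 CPM and 27.5 ± 5.51 CPM, higher in 3 of 3 pairs by 0.17 to 0.24, with a paired difference of 0.22 (SE 0.09, adjusted p = 0.112). TNFRSF21 differed by less than 0.01 (log2) between its groups, at 43.0 ± 1.89 CPM and 43.0 ± 1.61 CPM. TNFRSF25, the receptor of TNFSF15, was low, with 63 counts against 37, and its difference of -0.60 (SE 0.50) did not pass (adjusted p = 0.467).

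Of the decoy receptors only TNFRSF11B was called in the paired fit. TNFRSF11B (ENSG00000164761) encodes osteoprotegerin, a secreted decoy of RANKL that also binds TRAIL. It had 16.9, 7.72 and 7.44 CPM with TGF-β and 22.8, 12.8 and 15.1 CPM with CXCL10. TGF-β replicate 1 lay above CXCL10 replicates 2 and 3, so the groups overlapped. That library exceeded the rest of its group by 1.14 (log2), while the paired change was 0.70 (SE 0.14, adjusted p = 0.00314), with pairs at 0.43, 0.72 and 1.01. The unpaired adjusted p was 0.270, and paired limma-trend gave 0.0505.

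TNFRSF10D, a TRAIL decoy, did not differ detectably (35.7 ± 3.23 CPM and 37.9 ± 1.77 CPM, paired difference 0.09, SE 0.08, adjusted p = 0.508). TNFRSF10C, the other TRAIL decoy, had 86 counts in all with TGF-β and 42 with CXCL10. Its pairs went both ways, at 0.39, -1.99 and -0.97, and the paired difference of -0.90 (SE 0.48) did not pass (adjusted p = 0.228). It was -1.54 and passed without both libraries of replicate 1 (0.0195), and it was -0.37 without those of replicate 2 (0.754). The 4 membrane receptors of TRAIL are close paralogs, so reads may be shared between them. The decoys TNFRSF10C and TNFRSF10D together made up 13.2% ± 0.65 of the summed FPKM of these 4 receptors with TGF-β and 13.3% ± 0.40 with CXCL10 (SD, n = 3).

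TNFRSF6B, a secreted decoy of FASLG, TNFSF14 and TNFSF15 that mice lack, had 24, 20 and 9 counts with TGF-β and 65, 16 and 22 with CXCL10. CXCL10 replicate 1 alone was high, and the other 5 libraries overlapped. The paired difference of 0.95 (SE 0.40) had an adjusted p of 0.125. TNFRSF6B lies within the RTEL1 locus, and the table also holds a row for RTEL1 and one for the RTEL1-TNFRSF6B readthrough. The readthrough row had 32, 7 and 0 counts with TGF-β and 5, 35 and 0 with CXCL10. RTEL1, a DNA helicase, was higher in the paired fit (log2 change 0.60, SE 0.10, adjusted p = 0.00133), and how reads were divided among these rows was not tested.

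**Figure D3:**
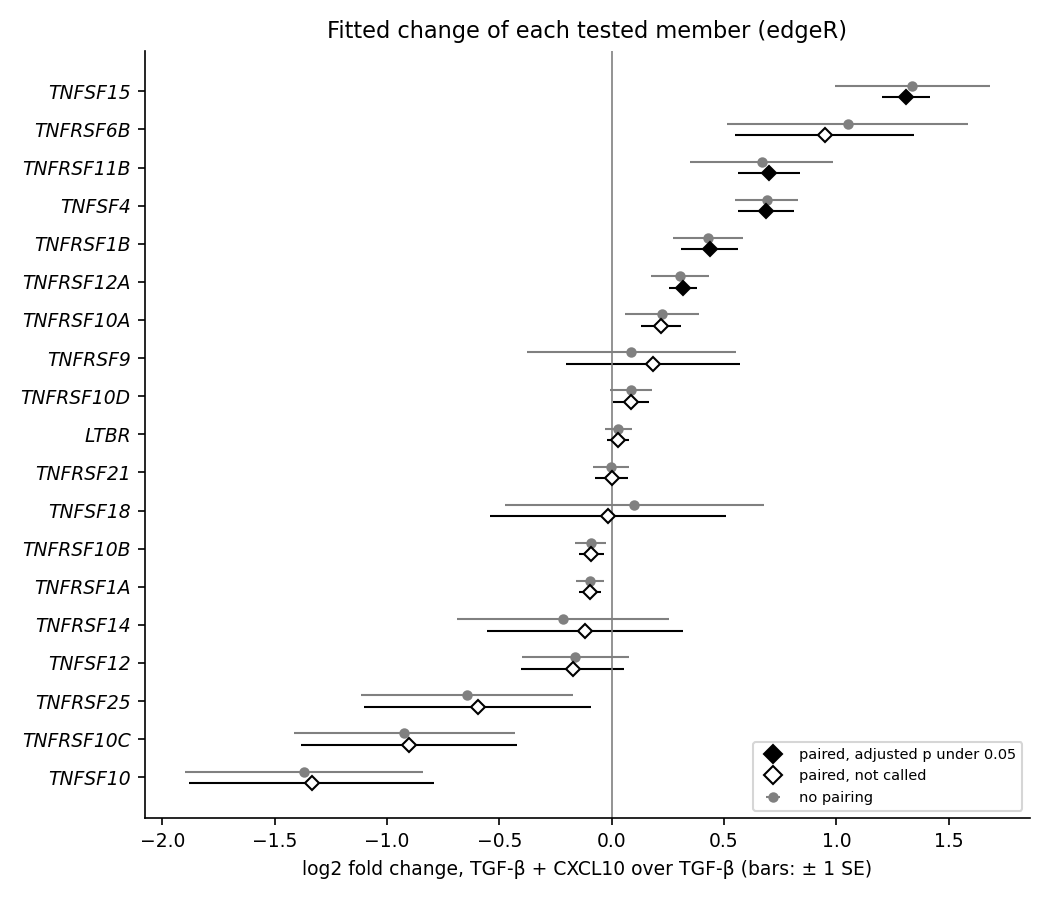
Fitted log2 fold change of each tested member with ± 1 SE, without pairing (grey circles) and paired by replicate number (diamonds, filled where the adjusted p was under 0.05). The 5 filled diamonds lie between 0.32 and 1.31, and the widest bars belong to genes with few counts, such as TNFSF10, TNFSF18 and TNFRSF10C.

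Over the 19 tested members the median paired log2 change was 0.03, against -0.01 over all 11970 genes, with 10 members above 0 and 9 below. The median size of the change was 0.22 for the members and 0.16 for all genes. In all 5 of the called members TGF-β replicate 1 was the highest library of its group, and in 4 of them CXCL10 replicate 1 was. The median excess of TGF-β replicate 1 over the rest of its group was 0.49 for these 5 genes, beside a median paired change of 0.69. In bulk RNA a change in level per cell and a change in the make-up of the culture cannot be told apart. Nothing in the labels says that the replicates were separate cultures, so p-values may measure technical spread only.

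For 4 of the 19 tested members the deposited FPKM did not follow the counts. The ratio of counts to FPKM stands for the gene length behind the FPKM, and once scaled by library it would be the same in each library for a fixed length. Its largest value exceeded its smallest by over 1.5 times for TNFRSF9 (5.25 times), TNFRSF14 (2.22), TNFRSF25 (1.95) and TNFRSF1B (1.85), and for 12.5% of all genes with a value, whose median was 1.10 times. For TNFRSF1B the ratio, divided by the gene's and then by the library's median, was 0.565 in TGF-β replicate 1 and 1.04 in the other 5 libraries. That library held 6.79 FPKM of TNFRSF1B, against 2.55 to 4.35 in the others, so that the mean FPKM was 4.12 ± 2.32 with TGF-β and 4.03 ± 0.28 with CXCL10. The rise seen in counts was absent there, and the authors' deposited table gives a log2 ratio of -0.03. For TNFRSF9 the ratio was 0.268 and 0.210 in TGF-β replicates 1 and 3, and the change in FPKM had the opposite sign to that in counts. TNFSF15, TNFSF4, TNFRSF12A and TNFRSF11B had ratios that varied by 1.07 times or less. On log2(FPKM + 1) these 4 genes were higher as well in the paired fit, by 0.94, 0.50, 0.28 and 0.57, and of them only TNFSF15 passed.

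**Figure D4:**
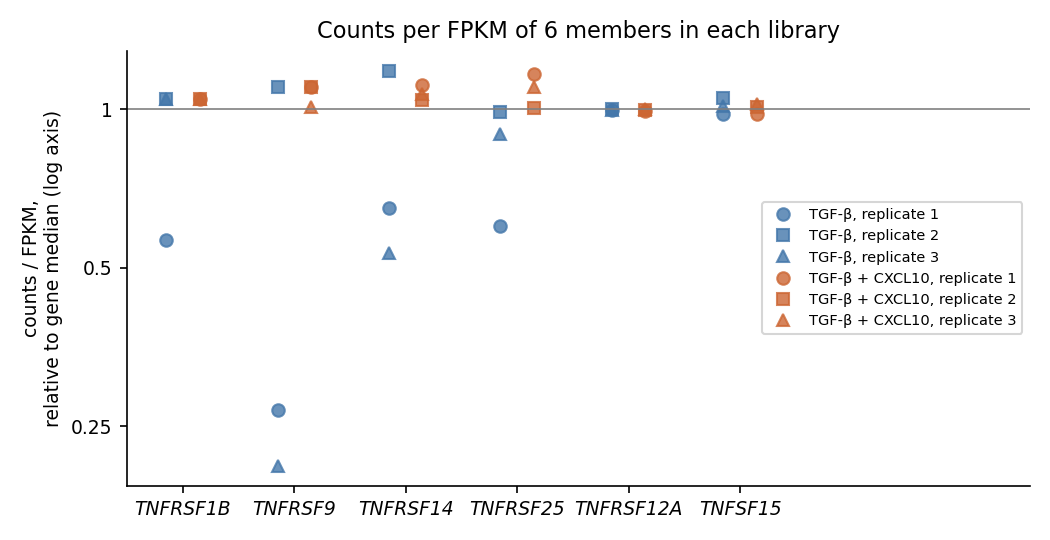
Counts divided by FPKM, divided by the gene's median and then by the library's median over genes (log axis), for the 4 members whose ratio varied most and for TNFRSF12A and TNFSF15. The low points belong to TGF-β replicates 1 and 3, down to 0.210 for TNFRSF9, while TNFRSF12A and TNFSF15 stay near 1.

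The genes around the family were looked at in 4 lists with 66 genes, of which 58 rows were tested. In the paired fit 11 of these rows were higher and 5 lower, against the 9.71% and 8.04% of all genes given above, and without pairing 0 were called. Of 6 family genes filed under other symbols 5 were tested and 0 called. FAS, the death receptor of FASLG, stood at 45.8, 43.0 and 43.5 CPM with TGF-β and 37.5, 40.5 and 39.2 CPM with CXCL10, without overlap (paired difference -0.18, SE 0.08, adjusted p = 0.142), and CD27, the receptor of CD70, had 0 to 2 counts. EDA2R (-0.61, adjusted p = 0.410), RELT (0.20, 0.395) and RELL2 (0.10, 0.760) passed no test.

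Of 33 tested rows of receptor adaptors and proximal signalling genes 2 were higher, 2 were lower and 29 were not called, with a median of -0.02. The shares over all genes in this paired fit were 9.71% higher and 8.04% lower. CFLAR, which encodes the caspase-8 inhibitor cFLIP, was higher by 0.49 (SE 0.07, adjusted p = 0.000295). It had 54.5, 36.9 and 39.0 CPM with TGF-β and 77.3, 53.2 and 52.9 CPM with CXCL10. TGF-β replicate 1 lay above the 2 lower CXCL10 libraries, so the groups overlapped, and 0.52 (log2) above its own group. MLKL, the executor of necroptosis, was higher by 0.79 (SE 0.17, adjusted p = 0.00683). It had 6.97, 3.80 and 5.03 CPM with TGF-β and 11.2, 7.35 and 8.47 CPM with CXCL10, without overlap, and TGF-β replicate 1 lay 0.66 (log2) above its group. RBCK1, a subunit of the linear ubiquitin ligase complex, fell by 0.21 (adjusted p = 0.0223) and the adaptor TRAF5 fell by 0.44 (adjusted p = 0.00955, named after its value was seen). Both overlapped between groups. TRAF5 had 25.7, 33.3 and 35.0 CPM with TGF-β and 16.2, 29.2 and 24.5 CPM with CXCL10, and TGF-β replicate 1 differed from its group by -0.41 (log2) for TRAF5 and by -0.23 for RBCK1. The RBCK1 call was lost without replicate 2 (adjusted p = 0.0869), without replicate 3 (0.178) and in paired DESeq2 (0.134), and that of TRAF5 without replicate 3 (0.0882). FADD, the death domain adaptor, was at 0.19 without a call (adjusted p = 0.101), although its groups did not overlap. TNFAIP3, the NF-κB feedback inhibitor A20, was at 0.20 (SE 0.15, adjusted p = 0.410).

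Among 6 genes of ligand and receptor shedding 3 were higher and 1 was lower in the paired fit, against 9.71% and 8.04% of all genes. This short list was chosen with earlier results of these data known, so its counts are no independent result. ADAM17, the protease that releases TNF and cleaves its receptors, had 54.9, 59.7 and 62.9 CPM with TGF-β and 48.9, 47.2 and 53.5 CPM with CXCL10, without overlap. Its paired log2 change was -0.25 (SE 0.07, adjusted p = 0.0256). RHBDF2, the iRhom that carries ADAM17 to the surface, was higher by 0.35 (adjusted p = 0.00911), and FRMD8, which stabilises that complex, by 0.31 (adjusted p = 0.00637). TIMP3, the inhibitor of ADAM17, was higher by 0.31 (adjusted p = 0.000592). TGF-β replicate 1 differed from its group by -0.16 (log2) for ADAM17, 0.23 for RHBDF2, 0.11 for FRMD8 and 0.38 for TIMP3. The ADAM17 call was lost without both libraries of replicate 2 (adjusted p = 0.193) or 3 (0.140) and in paired DESeq2 (0.142), and that of RHBDF2 without replicate 2 (0.101).

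Of 18 tested genes that TNF induces in many cells 6 were higher and 2 were lower in the paired fit, with a median of 0.30 against -0.01 over all genes. Of all genes 9.71% were higher and 8.04% lower. The list was chosen with earlier results of these data known, so its counts and median are no independent result. CXCL8, a neutrophil chemokine, stood at 7.82, 2.49 and 2.78 CPM with TGF-β and 39.4, 7.59 and 7.12 CPM with CXCL10, and replicate 1 was again the highest of both groups. Its paired change was 1.90 (SE 0.19, adjusted p = 2.60e-05). NFKB2, the subunit of the non-canonical NF-κB pathway, was higher by 0.50 (adjusted p = 0.00295) and the early response gene IER3 by 0.31 (adjusted p = 0.00134). TNFAIP2 fell by 0.41 (SE 0.06, adjusted p = 0.000595), and NFKBIA, the NF-κB inhibitor, was at -0.11 (SE 0.13, adjusted p = 0.635). TGF-β replicate 1 differed from its group by 1.52 (log2) for CXCL8, 0.35 for NFKB2, 0.14 for IER3 and -0.40 for TNFAIP2.

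**Figure D5:**
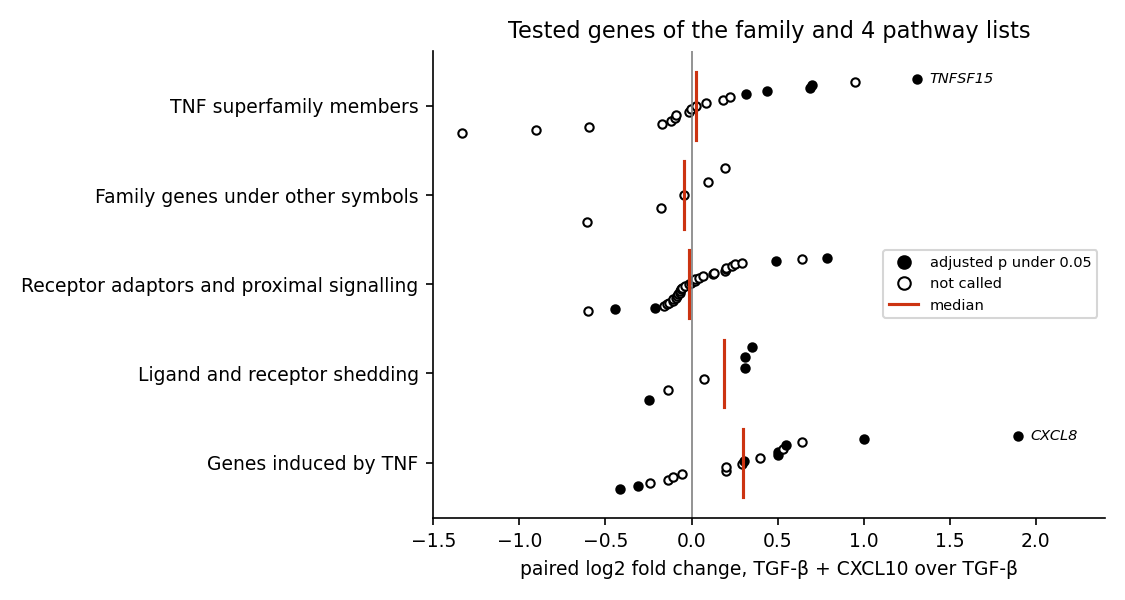
Paired log2 fold change of each tested gene of the family and of the 4 lists, with filled points at an adjusted p under 0.05 and a red bar at each median. The family and the adaptor list centre near 0, at 0.03 and -0.02, while the genes that TNF induces have a median of 0.30 with CXCL8 farthest out at 1.90. The lists were chosen with earlier results of these data known.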

How the data were processed

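The labels' protocols name an RNeasy extraction and SMARTer mRNA-seq libraries. GRCm38 and mm10 appear in the submitters' processing notes, although 0 of the 20323 identifiers in the table belong to the mouse annotation. The sources used here give no aligner, counter or strand setting. Per the file headers, each gene has deposited raw counts and deposited FPKM values for each of the 6 libraries. The table also holds the authors' log2 ratio of group means and the authors' p-value, whose test is not stated.

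The test on counts was that of edgeR 4.0.16, run in R 4.3.3 (quasi-likelihood; TMM scaling; filterByExpr at its defaults, a count of 10 and a total of 15), with Benjamini-Hochberg adjustment over 11970 genes and a threshold of 0.05. Standard errors were derived from the F statistic. Scaled CPM uses TMM, and log2 differences between libraries use a prior count of 2. Alternatives were DESeq2 1.42.0, limma 3.58.1 on log2(FPKM + 1), other scalings and filters, and fits that leave libraries out. The scripts were tested on simulated data.

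The test without a replicate block was the principal one. Same-numbered libraries deviated together from their group means, with correlations of 0.330, 0.121 and 0.163 across genes, each over the rule of 0.1. The numbers were therefore treated as pairs and the blocked values are given. Between different numbers, TGF-β replicate 2 with CXCL10 replicate 3 gave 0.080, and TGF-β replicate 3 with CXCL10 replicate 2 gave 0.082. Combinations of a replicate 1 library with another number gave -0.223 to -0.165. Replicates 2 and 3 were thus told apart by a small margin only. The pairing comes from the data. Members, lists and the rule for named genes (every tested member, up to 4 genes per list with the lowest unpaired p, and FAS, TNFAIP3, NFKBIA and ADAM17) were chosen with earlier results of these data known. No human genome or sequence was used. One further gene list is not reported here, and the list counts leave it out.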

Additional observations from a re-analysis of the deposited data

How the results depend on the processing

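Without pairing 0 members, 0 list genes and 0 genes in all were called by edgeR with either of the other scalings, without a filter or at a mean of at least 5 CPM, and 0 members by unpaired limma-trend. Leaving out single libraries gave 0 to 5 members higher and 0 to 1 lower, 0 to 1302 genes higher and 0 to 1046 lower in all, and 0 to 11 list genes higher and 0 to 4 lower. The upper ends came without TGF-β replicate 1, and leaving out any other single library gave 0 in each. DESeq2 without pairing called 1 member, 0 list genes and 172 genes in all higher, and 163 genes lower.

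With the replicate block 5 members, 11 list genes and 1162 genes were higher, and 0 members, 5 list genes and 962 genes were lower. With the block and DESeq2 the higher numbers were 4, 9 and 684, and 2 list genes and 454 genes were lower. With the block and library totals they were 5, 11 and 878 higher, with 6 list genes and 1358 genes lower. With the block at a mean of at least 5 CPM they were 5, 11 and 1174 higher, with 6 and 1031 lower. With the block and limma-trend on log2(FPKM + 1) they were 1, 4 and 337 higher, with 1 and 352 lower. With the block and without replicate 1 they were 5, 11 and 1533 higher, with 3 members, 5 list genes and 1313 genes lower. Without replicate 2 they were 4, 10 and 680 higher, with 3 list genes and 561 genes lower, and without replicate 3 they were 3, 9 and 539 higher, with 1 and 365 lower. The cause of these shifts was not tested.

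The sign of the log2 difference turned for 5 members, of which none was called in these fits. TNFSF18 (0.10 without pairing) gave -0.017 with the replicate block, -0.12 with the block and DESeq2, -0.057 with the block and library totals, -0.66 with the block without replicate 3 and -0.11 in limma-trend on log2(FPKM + 0.1). LTBR (0.03) gave -0.014 with library totals and -0.015 with the block and library totals. TNFRSF14 (-0.22) gave 0.20 with the block without replicate 2. TNFRSF9 (0.09) gave -0.41 in limma-trend on log2(FPKM + 1), with or without the block, -1.02 on log2(FPKM + 0.1) and -0.17 with the block without replicate 3. TNFRSF21 (-0.0017) gave 0.0015 with DESeq2, 0.0023 with the block and DESeq2, 0.0016 with DESeq2 size factors, 0.0090 without a filter, and 0.0097 and 0.040 with the block without replicates 2 and 3. Leaving out single libraries gave -0.41 to 0.53 for TNFSF18, -0.0031 to 0.055 for LTBR, -0.55 to 0.29 for TNFRSF14, -0.16 to 0.77 for TNFRSF9 and -0.033 to 0.030 for TNFRSF21. Members with at most 100 counts in all, such as TNFSF10, TNFSF18 and TNFRSF25, had standard errors of 0.50 or more on the log2 scale with pairing. A lone cut at a mean of 1 CPM would call 18 members expressed in place of 19.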
